A study of Mus musculus with 16 samples.

Results

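The 10 genes described here handle iron in the cell: the exporter ferroportin (Slc40a1), the ferrireductases Steap4 and Steap3, the transferrin receptor (Tfrc), the ferritin heavy and light chains (Fth1, Ftl1), the iron transporters Slc11a1 and Slc11a2, heme oxygenase 1 (Hmox1) and the iron regulatory protein Ireb2. They are 10 of the 55487 genes in the table of counts. The set was chosen by 2 measured values, the fall of Slc40a1 in tumor medium and the fall of Steap4 with ruxolitinib, and the other 8 genes belong to the same pathway. RNA was sequenced from 16 samples of macrophages derived from the bone marrow (BMDMs) of wild-type (WT) Balb/c mice aged 8 weeks.

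The tumor medium was conditioned medium (CM) of 4T1 cells, a mouse mammary tumor cell line. Ruxolitinib (Rux) blocks JAK1 and JAK2, kinases of cytokine receptors, while IKK-16 blocks the IKK kinases upstream of NF-κB. The samples formed 6 groups, all WT. DMEM, the medium without tumor factors, had 2 samples, and DMEM with Rux (DMEM + Rux) had 3. CM alone had 3 samples, CM with 0.5 μM Rux (CM + Rux), labelled 4 h, had 3, and CM with 0.5 μM Rux and 0.8 μM IKK-16 (CM + Rux + IKK-16) had 3. The remaining 2 samples were CM + Rux labelled 2 h in place of 4 h, and it is not stated which step the 2 h refers to. Before CM the BMDMs were serum starved for 2 h, with Rux present where it was used. The study's methods give 4 h of CM before RNA was isolated and do not mention the 2 h samples apart. The dose of Rux in DMEM is not given in the sources used here. CM was taken from serum-starved 4T1 cells, so tumor factors and other differences between CM and DMEM cannot be told apart. The labels do not say whether replicates came from separate mice or cultures, so p-values measure only the spread between these samples, which may be technical.

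The counts of a sample summed to 18449388 at the lowest and 46215853 at the highest. Levels are given as scaled CPM (counts relative to the total of the sample) after scaling by relative log expression (RLE), and changes as log2 fold changes with their standard errors (SE). A gene was called higher or lower where the adjusted p-value of edgeR's quasi-likelihood test (Benjamini-Hochberg) was under 0.05 and the log2 fold change was beyond 0.5. All 10 genes were among the 12372 that passed the filter of 1 CPM in at least 2 samples. RLE scaling, compared with scaling by total counts, raised the median log2 fold change of all genes by 0.31 where CM was set against DMEM and by 0.30 where CM + Rux was set against DMEM + Rux, so changes in these comparisons are relative to that median. All 8 macrophage markers listed were detected in every sample. Lyz2 was at 28515 to 38000 CPM, Csf1r at 2251 to 3596 CPM, Cd68 at 1307 to 2022 CPM and Adgre1, which encodes F4/80, at 1185 to 1800 CPM. Other markers varied more between groups. The mean of Cd14 was 2111 CPM in DMEM and 13548 CPM in CM, that of Itgam 110 and 218 CPM, that of Fcgr1 155 CPM in CM and 52.5 CPM in CM + Rux, and that of Mertk 25.4 CPM in DMEM and 5.18 CPM in CM + Rux. In RNA of whole cultures, fewer cells of a type and less RNA per cell cannot be told apart.

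Macrophages take up iron as transferrin or recover it from engulfed red cells, whose heme is opened by heme oxygenase. Iron leaves endosomes and lysosomes through transporters of the Slc11 family after reduction by a Steap protein, is stored in ferritin, and leaves the cell through ferroportin, the known iron exporter of mammals. Inflammatory signals are known to lower ferroportin and raise ferritin in macrophages, which keeps iron from microbes. Iron also acts on the mRNAs themselves, because the regulatory proteins IRP1 (Aco1) and IRP2 (Ireb2) bind a hairpin called the iron-responsive element. In the 5′ UTR the bound protein blocks translation, and in the 3′ UTR it protects the mRNA from decay.

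Hairpins of this form are shown for the mRNAs that hold one, since translation is a layer that counts of RNA do not measure. Transcripts of GENCODE M21 (GRCm38) were searched for an unpaired C, a stem of 5 base pairs (G-U pairs allowed) and a loop. The loop was CAGTG followed by A, C or T. Of the 10 genes, 4 held such a hairpin: Fth1, Ftl1 and Slc40a1 in the 5′ UTR and Tfrc, 4 times, in the 3′ UTR. Among all genes, 0.112% of 20580 held one in the 5′ UTR and 0.477% of 20978 in the 3′ UTR. Each sequence runs 5′ to 3′ on the mRNA strand, with the 6-base loop in capitals.
Fth1, 5′ UTR, chr19:9982732-9982760, plus strand: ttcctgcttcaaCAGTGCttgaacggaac
Ftl1, 5′ UTR, chr7:45459779-45459807, minus strand: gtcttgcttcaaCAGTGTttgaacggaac
Slc40a1, 5′ UTR, chr1:45925465-45925493, minus strand: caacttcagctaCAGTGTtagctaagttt
Tfrc, 3′ UTR, chr16:32631219-32631247, plus strand: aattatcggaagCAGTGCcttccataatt
Tfrc, 3′ UTR, chr16:32631598-32631626, plus strand: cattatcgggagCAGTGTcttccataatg
Tfrc, 3′ UTR, chr16:32631663-32631691, plus strand: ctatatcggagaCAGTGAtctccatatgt
Tfrc, 3′ UTR, chr16:32631710-32631738, plus strand: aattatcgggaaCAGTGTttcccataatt
A match is a description of the letters and not a test of binding, and elements of another form, such as the known one in the 3′ UTR of Slc11a2, are not found by this search.

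The promoter of Steap4 is shown because this gene was chosen for its fall with the JAK inhibitor. No promoter was given for Slc40a1, Slc11a2 or Hmox1. RefSeq promoters (GRCm38.p6, 250 bases before to 50 after a start) were given for the other 7 of the 10 genes. Each was searched on both strands for 5 motifs: the STAT motif TTCNNNGAA, the NF-κB consensus, the antioxidant response element core TGACNNNGC, the E-box CACGTG and the core of the interferon response element, which is GAAA repeated after a gap of 2 bases. The promoter of Steap4 held 1 STAT motif, beginning 116 bases before the start, and 2 NF-κB matches, beginning 250 and 226 bases before it. Of 32851 promoters, 8.30% held the STAT motif, 8.46% the NF-κB consensus, 12.4% the antioxidant core, 7.15% the E-box and 3.44% the interferon core, and the last 3 motifs had 0 matches in the promoters of the 7 genes. Of the other 6 genes searched, none held the STAT motif, and Ftl1 and Steap3 held the NF-κB consensus. Steap3, Tfrc and Fth1 had more than 1 promoter each, and the match of Steap3 was in 1 of its promoters only. The shares above are of promoters, so they are not shares of genes. A match is a description of the letters and not a test of binding. The stretch with the 3 matches in capitals is at chr5:7960222-7960371 on the plus strand.
Steap4: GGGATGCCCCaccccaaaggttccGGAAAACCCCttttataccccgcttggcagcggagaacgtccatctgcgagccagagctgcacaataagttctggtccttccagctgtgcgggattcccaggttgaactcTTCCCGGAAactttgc

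Slc40a1, the exporter (chr1:45908068-45926523, ENSMUSG00000025993), ranged from about 2 CPM to over 200 CPM between groups. DMEM samples were at 197 and 223 CPM, and DMEM + Rux samples at 257, 203 and 282 CPM. CM samples were at 2.50, 1.96 and 2.60 CPM, CM + Rux samples at 8.03, 4.21 and 4.27 CPM, and CM + Rux + IKK-16 samples at 14.6, 5.41 and 9.31 CPM. The 2 samples labelled 2 h were at 17.0 and 21.7 CPM. All 11 samples with CM therefore lay below all 5 samples in DMEM. As a percentage of the DMEM mean, CM was at 1.12% ± 0.16 (SD, n = 3), CM + Rux at 2.62% ± 1.04 (SD, n = 3), CM + Rux + IKK-16 at 4.65% ± 2.20 (SD, n = 3) and the 2 h samples at 9.21% ± 1.58 (SD, n = 2). In the order of levels, DMEM + Rux and DMEM overlapped, as did CM + Rux + IKK-16 and CM + Rux, while the other neighbors did not overlap. The log2 fold change was -6.50 (SE 0.38) in CM against DMEM, the comparison by which the gene was chosen. There it was the second among genes called lower with a mean of at least 1 CPM, after the noncoding gene Gm15513 and before Rasgrp3 (-6.06). Gm15513 was barely counted in CM samples, so its place ahead of Slc40a1 is not a measured order.

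The effect of CM was tested in samples that did not choose the gene by setting CM + Rux against DMEM + Rux. Slc40a1 was lower by a log2 fold change of -5.47 (SE 0.33, adjusted p = 9.25e-09, edgeR), or 44.3-fold. In the 2 h samples it was higher than in CM + Rux by 1.78 (SE 0.34, adjusted p = 9.88e-04, edgeR). IKK-16 was followed by a difference of 0.82 from CM + Rux (SE 0.31, adjusted p = 0.0959, edgeR), higher in 3 of 3 pairs of the same replicate number. With the replicate number as a block the difference was 0.78 and passed (adjusted p = 0.0338, edgeR). The value depended on single samples: it was 0.40 without CM + Rux + IKK-16 replicate 1 (adjusted p = 0.439, edgeR), 1.21 without CM + Rux replicate 1 (adjusted p = 0.0333, edgeR) and 1.10 without CM + Rux + IKK-16 replicate 2 (adjusted p = 0.0159, edgeR), and it did not pass when any of the other 3 samples was left out. Rux in DMEM gave 0.23 (SE 0.30, adjusted p = 1, edgeR), with an interval of 2 SE from -0.37 to 0.83. In CM + Rux against CM, a comparison used in the choice of genes, the value was 1.26 (SE 0.37), with every CM + Rux sample above every CM sample.

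**Figure D1:**
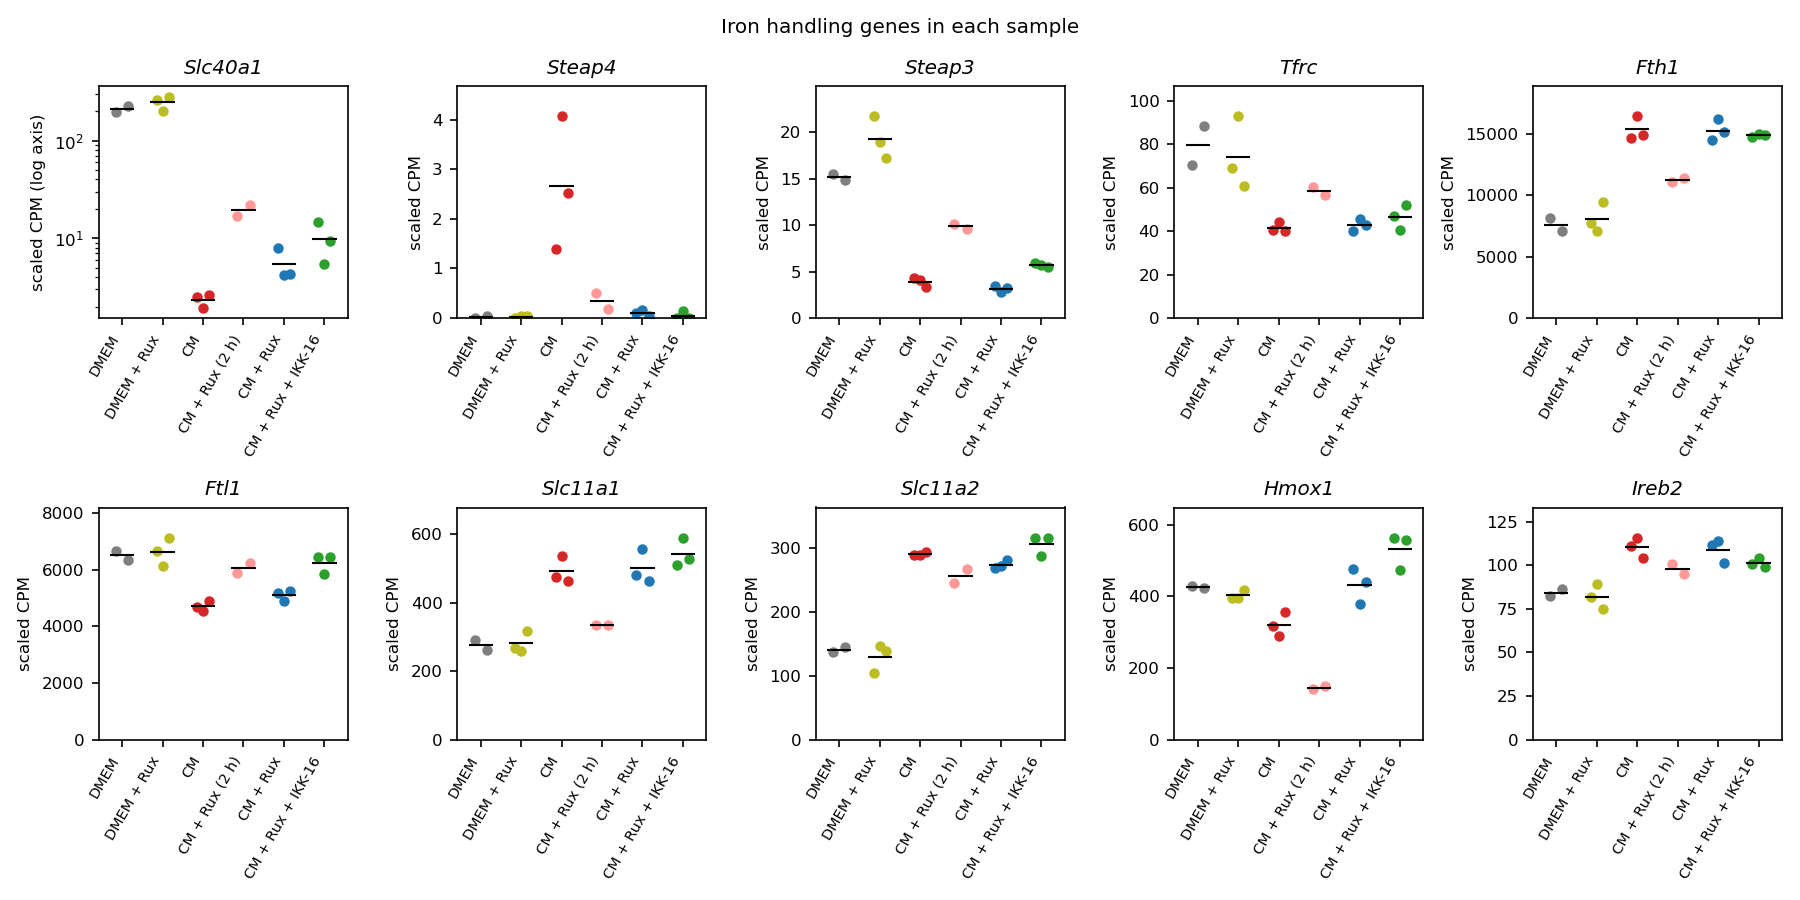
Scaled CPM of each of the 10 genes (vertical axes, logarithmic for Slc40a1 and linear from 0 for the others) in each sample of the 6 groups (horizontal axes). Points are samples and lines are group means. Slc40a1 is at about 2 to 22 CPM in all CM groups and above 197 CPM in both DMEM groups, and Steap4 is above 1 CPM in CM alone.

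Steap4 (chr5:7960457-7982213, ENSMUSG00000012428), a ferrireductase of the plasma membrane and endosomes, was counted in few fragments outside CM alone. CM samples had 25, 137 and 62 counts, or 1.39, 4.07 and 2.52 CPM. CM + Rux samples had 4, 7 and 1 counts, and the 2 h samples 18 and 3. CM + Rux + IKK-16 samples had 0, 5 and 0 counts, DMEM samples 0 and 1, and DMEM + Rux samples 0, 2 and 1. CM samples lay above all 13 others. Steap4 was chosen for its fall in CM + Rux against CM, but it passed the filter only through CM, so no fold change is given there either. The genes next to it in the order of fitted values were Ifit3 (-4.06) and Mx2 (-3.78), and its own place in that order rests on 1 to 7 counts per CM + Rux sample. A count of 0 allows up to 3 counts, which are 0.0669 to 0.175 CPM across samples and cover counting error only. The groups other than CM lay near this limit, except for a 2 h sample at 0.497 CPM. No fold change is therefore given against or among these groups. Apart from that sample, differences among them were not detectable at this depth. The 2 h samples were not compared with the DMEM groups.

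Steap3 (chr1:120190757-120272705), the main ferrireductase of the transferrin endosome, was lower in CM groups than in DMEM groups. It was at 15.5 and 14.8 CPM in DMEM, at 21.7, 19.0 and 17.2 CPM in DMEM + Rux, at 4.28, 4.07 and 3.34 CPM in CM and at 3.42, 2.83 and 3.20 CPM in CM + Rux. CM + Rux + IKK-16 samples stood at 5.90, 5.71 and 5.53 CPM and the 2 h samples at 10.2 and 9.63 CPM, so both sets lay between the CM + Rux and the DMEM samples. With CM + Rux set against DMEM + Rux it fell by 2.61 on the log2 scale (SE 0.12, adjusted p = 7.30e-10, edgeR). IKK-16 was followed by a rise of 0.86 over CM + Rux (SE 0.12, adjusted p = 5.42e-04, edgeR), in 3 of 3 pairs. The 2 h samples were higher than CM + Rux by 1.65 (SE 0.13, adjusted p = 9.89e-07, edgeR). Steap3 had the smallest p-value of the 10 genes in DMEM + Rux against DMEM, at 0.34 (SE 0.12), but did not pass the correction (adjusted p = 0.596, edgeR).

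Tfrc, the receptor that takes up transferrin-bound iron, moved less. DMEM samples were at 70.6 and 88.4 CPM and DMEM + Rux samples at 69.0, 92.8 and 60.8 CPM. CM samples were at 40.6, 44.4 and 39.9 CPM and CM + Rux samples at 40.0, 45.3 and 43.0 CPM, all below the DMEM groups. CM + Rux + IKK-16 samples were at 47.0, 40.6 and 52.2 CPM and the 2 h samples at 60.4 and 56.8 CPM. It fell by 0.80 on the log2 scale in CM + Rux against DMEM + Rux (SE 0.14, adjusted p = 1.74e-04, edgeR). The 2 h samples differed from CM + Rux by 0.45 (SE 0.15, adjusted p = 0.0325, edgeR), which is below the threshold of 0.5. The difference with IKK-16 was 0.12 (SE 0.14, adjusted p = 0.610, edgeR).

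The ferritin chains, which form the shell that stores iron, went in different directions. Fth1 encodes the heavy chain, which has the ferroxidase site. It was at 8117 and 7095 CPM in DMEM and at 14680, 16420 and 14934 CPM in CM, and in CM + Rux it was at 14453, 16176 and 15107 CPM. DMEM + Rux samples were at 7722, 7097 and 9448 CPM, CM + Rux + IKK-16 samples at 14712, 14982 and 14922 CPM and the 2 h samples at 11050 and 11360 CPM. Every sample with CM thus lay above every sample in DMEM. Fth1 was higher in CM + Rux than in DMEM + Rux by 0.91 (SE 0.11, adjusted p = 7.32e-06, edgeR). In the 2 h samples it differed from CM + Rux by -0.44 (SE 0.13, adjusted p = 0.0136, edgeR), below the threshold of 0.5, and scaling by total counts gave -0.51, which was called lower. With IKK-16 the difference was -0.036 (SE 0.11, adjusted p = 0.873, edgeR). It made up 0.803% to 1.504% of all counts of a sample and ranked between 2 and 5 among all genes.

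Ftl1, the light chain that aids mineral formation, was at 6679 and 6350 CPM in DMEM, at 6656, 6132 and 7130 CPM in DMEM + Rux, at 4697, 4538 and 4893 CPM in CM and at 5183, 4886 and 5245 CPM in CM + Rux. CM + Rux lay below DMEM + Rux by -0.38 (SE 0.09, adjusted p = 0.00136, edgeR), which does not reach 0.5. Under scaling by total counts the value was -0.68 and Ftl1 was called lower. With IKK-16 the samples were at 6447, 5845 and 6453 CPM, a difference of 0.29 from CM + Rux (SE 0.09, adjusted p = 0.0353, edgeR) below the threshold of 0.5. The 2 h samples were at 5891 and 6241 CPM, above CM + Rux by 0.25 (SE 0.10, adjusted p = 0.0530, edgeR), which did not pass. The ratio of Fth1 to Ftl1 counts does not depend on the scaling. It is not a ratio of mRNA molecules, because the exons hold 3469 bases in Fth1 and 1340 in Ftl1. Per kb of exon, the DMEM means were 2193 CPM for Fth1 and 4862 CPM for Ftl1. The ratio of counts was 1.17 ± 0.07 (SD, n = 2) in DMEM and 1.21 ± 0.10 (SD, n = 3) in DMEM + Rux. In CM it was 3.27 ± 0.31 (SD, n = 3), in CM + Rux 2.99 ± 0.28 (SD, n = 3), in CM + Rux + IKK-16 2.39 ± 0.15 (SD, n = 3) and in the 2 h samples 1.85 ± 0.04 (SD, n = 2). The 2 h samples lay between the DMEM and the other CM groups, and CM + Rux + IKK-16 lay below CM + Rux without overlap. CM and CM + Rux overlapped, but CM + Rux was lower in 3 of 3 pairs of the same replicate number (2.79 against 3.13, 3.31 against 3.62 and 2.88 against 3.05). Ferritin has pseudogenes, and fragments that align to several places were left out of the counts. The pseudogene Ftl1-ps1 had 209 to 648 counts, or 0.209% to 0.278% of those of Ftl1, and Ftl1 shares 8.13% of its exon bases with Gm22133 on the same strand, so ferritin levels are uncertain.

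**Figure D2:**
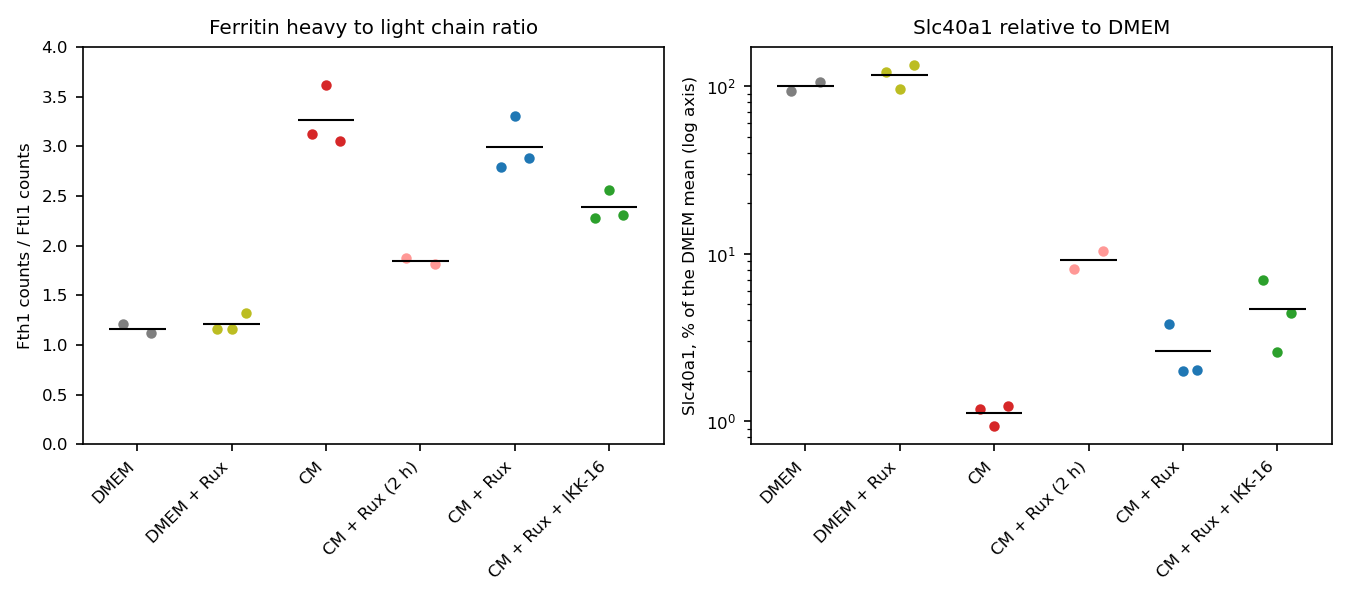
Left, ratio of Fth1 to Ftl1 counts in each sample (linear axis from 0). Right, Slc40a1 as a percentage of the DMEM mean (logarithmic axis). Points are samples and lines are group means in the 6 groups on the horizontal axes. The ratio is 1.17 in DMEM and 3.27 in CM, with the 2 h samples at 1.85, and Slc40a1 is at 1.12% of DMEM in CM and at 9.21% in the 2 h samples.

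The iron transporters Slc11a1 and Slc11a2 were higher with CM. Slc11a1 (Nramp1) acts at the phagosome. It was at 292 and 261 CPM in DMEM, at 268, 260 and 318 CPM in DMEM + Rux, at 474, 537 and 464 CPM in CM and at 479, 558 and 463 CPM in CM + Rux. Slc11a2 (DMT1) carries iron out of the endosome. DMEM samples had 137 and 144 CPM of it, DMEM + Rux samples 104, 147 and 138 CPM, CM samples 289, 289 and 293 CPM and CM + Rux samples 267, 272 and 280 CPM. In neither gene did CM + Rux and DMEM + Rux samples overlap. Slc11a1 rose by 0.83 (SE 0.10, adjusted p = 6.06e-06, edgeR) and Slc11a2 by 1.07 (SE 0.10, adjusted p = 5.32e-07, edgeR) in that comparison. Under scaling by total counts the rise of Slc11a1 was 0.52 and was still called. In the 2 h samples Slc11a1 was at 335 and 333 CPM, lower than in CM + Rux by -0.58 (SE 0.11, adjusted p = 0.00128, edgeR). Without CM + Rux replicate 2 this value was -0.496, and the call was lost. Slc11a2 was at 244 and 267 CPM in the 2 h samples and differed from CM + Rux by -0.10 (SE 0.11, adjusted p = 0.527, edgeR). With IKK-16, Slc11a1 was at 510, 589 and 527 CPM and Slc11a2 at 314, 288 and 315 CPM. Neither difference from CM + Rux passed, at 0.12 for Slc11a1 (SE 0.10, adjusted p = 0.481, edgeR) and 0.16 for Slc11a2 (SE 0.10, adjusted p = 0.307, edgeR).

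Hmox1, which releases iron from heme, was lowest in the 2 h samples. It was at 429 and 422 CPM in DMEM, at 394, 396 and 417 CPM in DMEM + Rux, at 317, 290 and 356 CPM in CM, at 478, 378 and 439 CPM in CM + Rux and at 564, 473 and 558 CPM in CM + Rux + IKK-16. The 2 h samples, at 140 and 150 CPM, were below all others. Compared with CM + Rux they were lower by -1.57 (SE 0.12, adjusted p = 5.75e-07, edgeR). CM + Rux differed from DMEM + Rux by 0.10 (SE 0.10, adjusted p = 0.382, edgeR), a value that changed sign to -0.20 under scaling by total counts. IKK-16 gave a difference of 0.30 (SE 0.10, adjusted p = 0.0563, edgeR). Ireb2, the iron regulatory protein IRP2, was at 82.3 and 86.2 CPM in DMEM, at 81.7, 88.9 and 74.6 CPM in DMEM + Rux and at 112, 114 and 101 CPM in CM + Rux. The other 8 samples, all with CM, were at 94.9 to 116 CPM. Its level differed by 0.41 between CM + Rux and DMEM + Rux (SE 0.07, adjusted p = 1.68e-04, edgeR), below the threshold of 0.5, and by 0.11 under scaling by total counts (adjusted p = 0.169, edgeR). From CM + Rux it differed by -0.11 with IKK-16 (SE 0.07, adjusted p = 0.366, edgeR) and by -0.15 in the 2 h samples (SE 0.08, adjusted p = 0.148, edgeR).

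**Figure D3:**
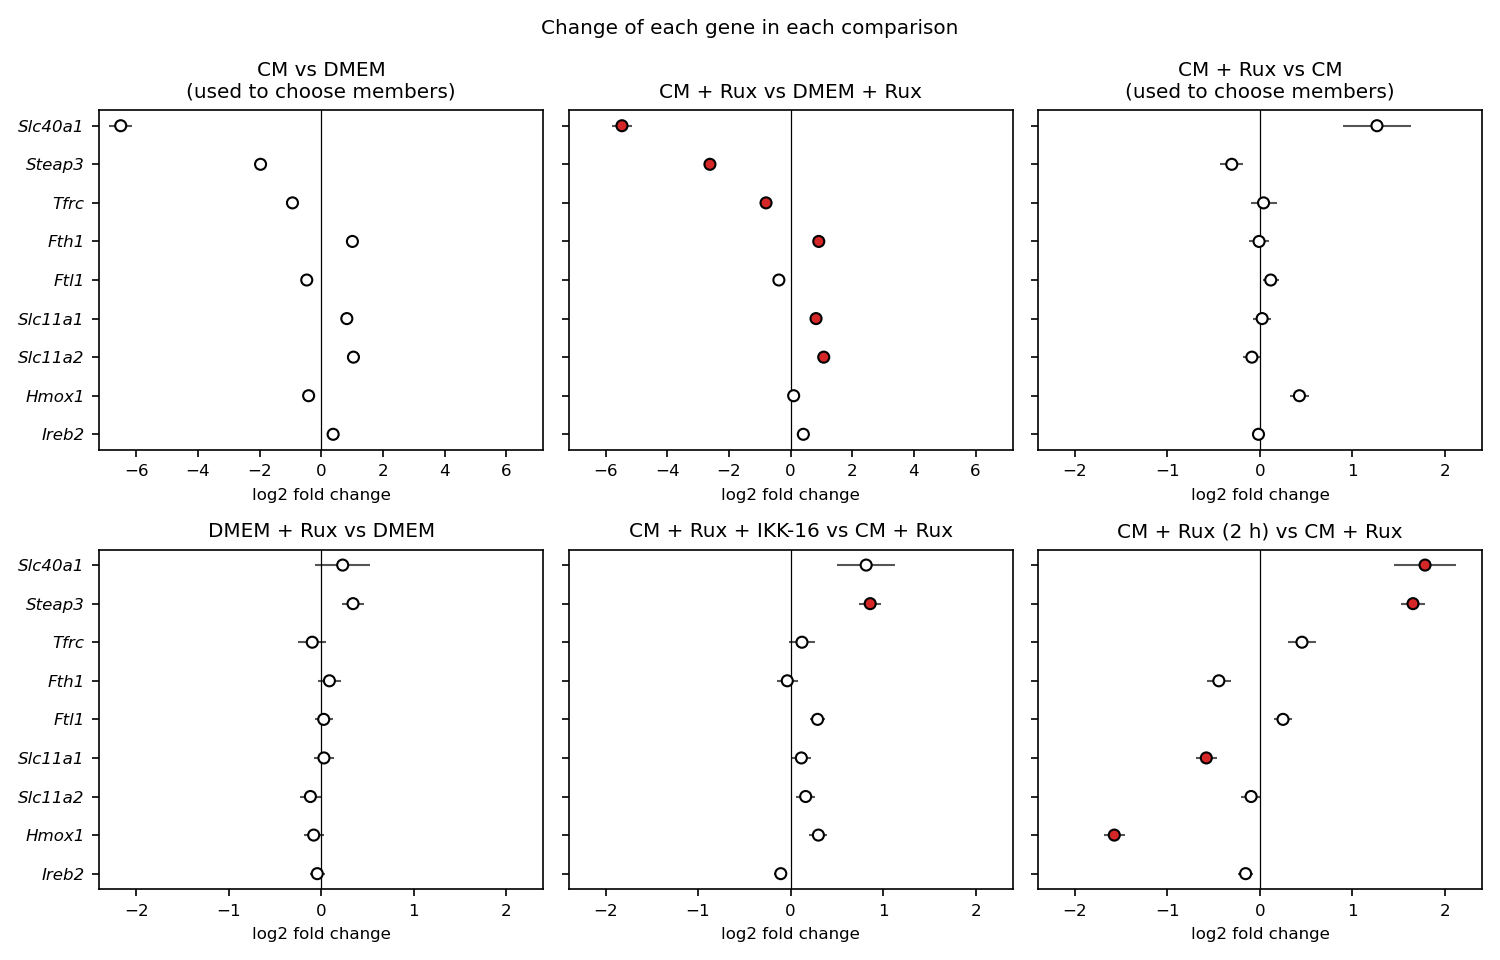
Log2 fold change (horizontal axes, with SE as bars) of 9 of the 10 genes in 6 comparisons. Steap4 is left out because of its low counts. Filled points were called in the 4 comparisons that were tested, and open points were not called or belong to the 2 comparisons that chose the genes. In CM + Rux against DMEM + Rux, Slc40a1, Steap3 and Tfrc are lower and Fth1, Slc11a1 and Slc11a2 are higher, and no gene is called in DMEM + Rux against DMEM.

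Of the 10 genes, 3 were called higher (Fth1, Slc11a1, Slc11a2) and 3 lower (Slc40a1, Steap3, Tfrc) in CM + Rux against DMEM + Rux, against 47.3% called among all genes (22.3% upward and 25% downward). In CM + Rux + IKK-16 against CM + Rux, 1 was called (Steap3, higher), where the share of all genes was 7.74%, with 4.07% higher and 3.66% lower. In the 2 h samples against CM + Rux, 2 were higher (Slc40a1, Steap3) and 2 lower (Hmox1, Slc11a1), where 23.3% of all genes were called, 12.6% higher and 10.7% lower. In DMEM + Rux against DMEM 0 were called by edgeR and 0 by DESeq2, where 0.97% of all genes were called, all of them lower (0% higher). At an unadjusted p under 0.05 there was 1 of the 10 (Steap3), beside 5.2% of all genes. Apart from Slc40a1, Steap3 and Steap4, the values there ran from -0.12 (Slc11a2) to 0.089 (Fth1), each with an adjusted p of 1 (edgeR). Among all genes, 45% were called in CM against DMEM (20.9% higher and 24.1% lower). In CM + Rux against CM the share was 3.33% (1.2% higher and 2.13% lower). These comparisons chose the genes, so calls of the 10 genes are not counted there. CM against DMEM gave -1.97 for Steap3, -0.93 for Tfrc, 1.01 for Fth1, -0.47 for Ftl1, 0.83 for Slc11a1, 1.05 for Slc11a2, -0.41 for Hmox1 and 0.39 for Ireb2. Scaling by total counts moved these values, to -2.28 for Steap3, -1.24 for Tfrc, 0.70 for Fth1 and -0.78 for Ftl1. It gave 0.52 for Slc11a1, 0.74 for Slc11a2, -0.71 for Hmox1 and 0.077 for Ireb2. In CM + Rux against CM these 8 genes had values from -0.30 (Steap3) to 0.43 (Hmox1).

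Other genes of iron transport, storage and regulation were read from a list of 32, of which 21 were tested. The gene of hepcidin, the hormone that removes ferroportin from the membrane (Hamp), was not tested, with at most 0.862 CPM. In CM + Rux against DMEM + Rux, 7 genes rose and 4 fell, and the median log2 fold change was 0.09 (all genes: -0.0037), while scaling by total counts gave 6 and 6. The share called, 52.4% of the list, was near the 47.3% of all genes. Lcn2, which binds siderophores, was at 8.81, 5.64 and 11.0 CPM in CM + Rux and at 0.0923, 0.0892 and 0.291 CPM in DMEM + Rux. It was called higher, but it passed the filter only through samples with CM and lay near the limit of 3 counts in DMEM + Rux, so no fold change is given. Slc39a14, an importer of iron not bound to transferrin, was at 427, 486 and 399 CPM against 30.4, 26.5 and 26.3 CPM, a rise of 3.98 (SE 0.18, adjusted p = 5.35e-10, edgeR). The mitochondrial iron importer Slc25a37 rose by 2.99 (SE 0.18, adjusted p = 9.50e-09, edgeR). The genes that fell most were Hfe (-1.11), which acts with transferrin receptors, Ncoa4 (-1.08), the receptor for ferritin breakdown, and Slc22a17 (-1.03), the receptor of Lcn2. IKK-16 was followed by lower Lcn2 (-3.19), Cp (-1.33), the ferroxidase ceruloplasmin, and Slc39a14 (-1.25). These were the 3 genes of this list called in CM + Rux + IKK-16 against CM + Rux, or 14.3% of the list against 7.74% of all genes, with a median of 0.08 over the list (all genes: -0.0019). Slc39a14 was then at 147, 226 and 178 CPM, below every CM + Rux sample and above every DMEM sample. In the 2 h samples against CM + Rux, 1 was higher (Hfe, 1.04) and 4 lower, led by Lcn2 (-2.62), Cp (-0.85) and Fbxl5 (-0.60), with a median of 0.09 over the list (all genes: -0.027), and the share called was 23.8% against 23.3% of all genes.

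Genes of heme synthesis, transport and breakdown (26, of which 25 were tested) had 4 rises and 11 falls in CM + Rux against DMEM + Rux, the median being -0.41 (all genes: -0.0037), and scaling by total counts gave 4 and 16. This was 60% of the list, against 47.3% of all genes. Flvcr2 was called higher, at 2.99, 1.57 and 3.51 CPM in CM + Rux and 0.277, 0.201 and 0.0323 CPM in DMEM + Rux, and no fold change is given because it passed the filter only through samples with CM and lay near the limit of 3 counts in DMEM + Rux. The other named rises were those of Hp (1.66), which encodes haptoglobin, and Nfe2l2 (1.10), which encodes the factor NRF2. The largest falls were those of Abcg2 (-1.60), the heme exporter Flvcr1 (-1.49) and the heme carrier Slc46a1 (-1.38). Flvcr1 was at 27.8, 27.4 and 28.1 CPM in CM + Rux, at 63.8, 47.3 and 55.4 CPM in CM + Rux + IKK-16 and at 63.0 and 63.9 CPM in the 2 h samples. It was higher than in CM + Rux by 0.999 with IKK-16 (SE 0.14, adjusted p = 5.06e-04, edgeR) and by 1.19 in the 2 h samples (SE 0.15, adjusted p = 5.17e-05, edgeR). The other heme genes called with IKK-16 were Slc46a1 (0.69) and Hp (-1.58), so that 12% of the list was called against 7.74% of all genes, and the median over the list was 0.16 (all genes: -0.0019). In the 2 h samples 7 heme genes were higher and 3 lower (40% against 23.3% of all genes; 6 and 4 under scaling by total counts) around a median of 0.08 (all genes: -0.027), and Abcg2 (1.14) and Hebp1 (1.08) came after Flvcr1. The largest falls there were those of Spic (-1.47), a factor of iron-recycling macrophages, Flvcr2 (-1.46) and Hp (-1.35).

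Of 30 genes of iron-sulfur cluster assembly, 29 were tested. Between CM + Rux and DMEM + Rux, 5 rose with CM and 7 fell around a median of 0.02 (all genes: -0.0037), which is 41.4% of the list against 47.3% of all genes, and scaling by total counts gave 2 and 10. Ciapin1 rose by 1.58, Ciao2b by 0.88 and Bola2 by 0.64, while Bola1 (-1.45), Hscb (-1.37) and Fdxr (-1.28) fell most. IKK-16 was followed by 1 call (Hscb, 0.59), and the 2 h samples had 3 genes higher, led by Nubpl (1.02), Bola1 (0.70) and Hscb (0.57), and 2 lower (Mms19, -0.53, and Iba57, -0.50), while scaling by total counts turned the split to 1 higher and 3 lower. These shares were 3.45% with IKK-16 (7.74% of all genes) and 17.2% in the 2 h samples (23.3% of all genes). In DMEM + Rux against DMEM 0 genes of the 3 lists were called, where the share of all genes was 0.97%.

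**Figure D4:**
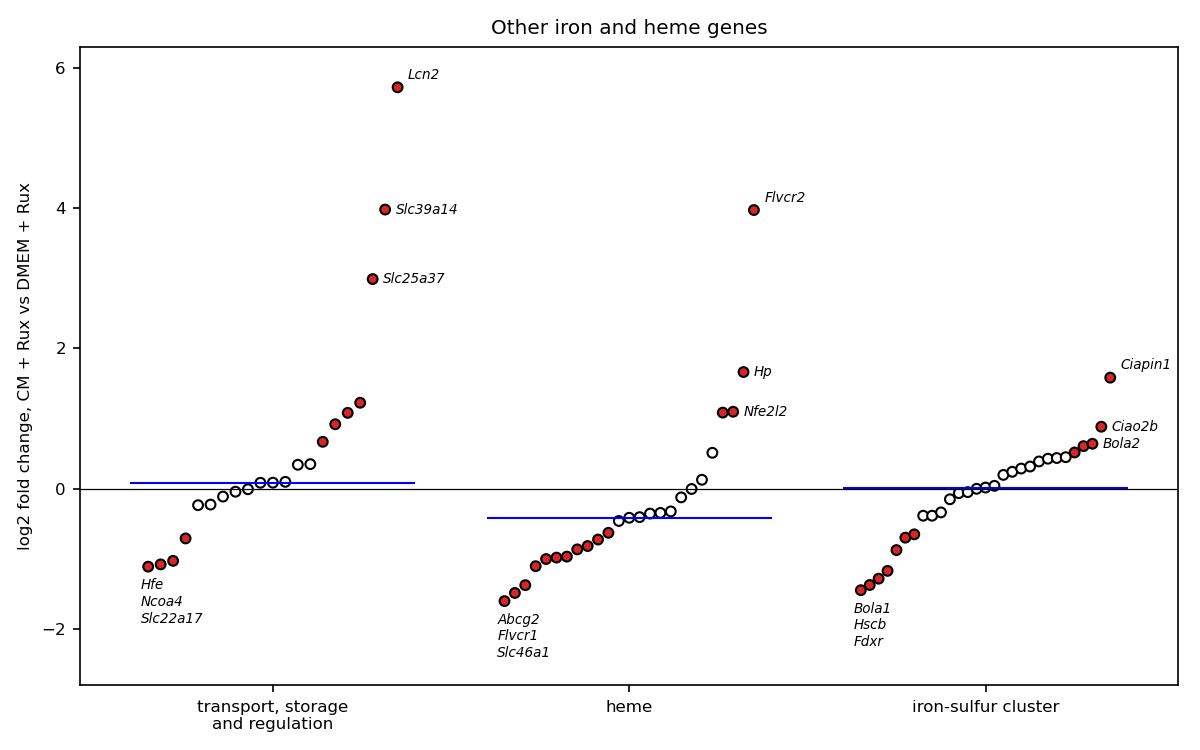
Log2 fold change of CM + Rux against DMEM + Rux (vertical axis) for the tested genes of 3 lists (horizontal axis, genes in order of their value). Filled points were called, open points were not, and blue lines are medians of the lists (0.09, -0.41 and 0.02). Lcn2, Slc39a14 and Flvcr2 have the largest fitted values, those of Lcn2 and Flvcr2 resting on levels near the limit of 3 counts in DMEM + Rux, and 11 of 25 heme genes are called lower.

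Markers of other cells were low. Of 10 erythroid markers 6 were at 0 in every sample, among them Alas2, the first enzyme of erythroid heme synthesis, and the sum was at most 1.18 CPM with Ermap as the most abundant. Hemoglobin genes are near-identical copies, so with fragments of several alignments left out their counts of 0 (Hba-a1, Hba-a2, Hbb-bs) do not measure their level. Sums reached 0.814 CPM for 7 neutrophil markers, 1.45 CPM for 7 epithelial markers, 1.23 CPM for 4 B cell markers and 0.0552 CPM for 5 T and NK cell markers. Epithelial RNA could come from 4T1 cells, although debris of those cells had been spun out of CM, and this was not tested. The 4 dendritic cell markers summed to 10.6 CPM in the 2 h samples and to 1.10 to 2.17 CPM in the other groups. Of these markers, Zbtb46 was at 10.1 CPM in the 2 h samples and at 0.90 to 1.89 CPM in the other groups. The 5 fibroblast markers summed to 5.73 to 20.9 CPM. Among 5 markers of iron-recycling macrophages, Vcam1 was at 0.33 CPM in DMEM and 11.3 CPM in CM, and Timd4 at 3.71 and 27.1 CPM. The other 3 were not higher in CM: Cd163, the receptor for hemoglobin with haptoglobin, was at 1.62 and 0.50 CPM, Cd5l at 3.78 and 2.41 CPM and Spic at 2.62 and 2.4 CPM. The sums of the 5 were 12.1 CPM in DMEM, 10.4 CPM in DMEM + Rux, 43.7 CPM in CM, 79.9 CPM in CM + Rux, 34.5 CPM in CM + Rux + IKK-16 and 72.2 CPM in the 2 h samples, and the part of such cells in the results was not tested.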

How the data were processed

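The authors trimmed reads with Trimmomatic 0.33, aligned them to GRCm38 with HISAT2 2.1.0 and counted fragments per gene with featureCounts 1.6.2. The deposited values are raw whole-number counts for 55487 genes. Fragments with several alignments or genes were left out, and counting used strand. Symbols came from GENCODE M21 for 55141 identifiers.

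Genes over 1 CPM in at least 2 samples were kept (12372), counts were scaled by RLE, and edgeR 4.0.16 with limma 3.58.1 in R 4.3.3 fitted 1 model of 6 groups. Filter, scaling and thresholds follow the study's methods, which name edgeR but in another section a different test. The fit was tested on simulated data, but the outcome is not given here. SE is the log2 fold change divided by the square root of the F statistic. Alternatives were TMM, no filter, the replicate block, only the groups compared, DESeq2 1.42.0, each sample left out, and total counts (chosen after seeing the data). No sample was a copy of another.

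Replicate numbers, from the labels, were taken to pair the samples. Deviations from group means correlated at over 0.1 in 34 of 35 pairs with the same number (median 0.38). Among pairs with different numbers this held in 1 of 71. Such deviations cancel within a group, so the pairs with different numbers are not separate evidence of pairing. The exception among pairs with the same number was not in a comparison. The main model did not use the pairing, and calls in the wider lists were not repeated with the replicate block. DMEM held replicates 1 and 2, and the 2 h samples held replicates 2 and 3, so comparisons with these groups were not balanced over replicates.

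The genes, lists and tests were chosen with earlier results of these data known. The 10 genes were to be named in every comparison. Steap4 is given by its counts, and small values are given as ranges where no gene was called. In each list, up to 3 called genes with the largest rise and 3 with the largest fall are named, and the 5 genes most correlated with Slc40a1 and with Steap4. Tables and figures were made with pandas 2.3.3 and matplotlib 3.10.9 in Python 3.11.15.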

Additional observations from a re-analysis of the deposited data

Results flagged for a closer look

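The fitted Hmox1 values with Rux had opposite signs in CM and in DMEM, and neither passed the thresholds. The sign in DMEM was not resolved: its SE was 0.11, and the interval of 2 SE ran from -0.30 to 0.14. Every CM + Rux sample was above every CM sample (log2 fold change 0.43), and every DMEM + Rux sample was below both DMEM samples (-0.08, adjusted p = 1, edgeR), a gap of 0.51 between the 2 values. The difference was not tested, since CM + Rux against CM was used to choose the genes. The share of all genes with such a pattern was not counted. Whether the effect of Rux on Hmox1 depends on the medium was therefore not tested.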

How the results depend on the processing

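Of 115 counts of calls under the alternatives, 106 were within 1.5 times the main count, and of 667 log2 fold changes of single genes 633 kept their direction and call or, where no test was made, moved by less than the spread between replicates. All genes called in CM + Rux against CM were 412, with 685 without a filter and 745 with the replicate block, and 243 (without CM + Rux replicate 1) to 486 when each sample was left out, among them 258 without CM replicate 2. Genes of the 10 called in CM + Rux + IKK-16 against CM + Rux were 1, with 2 without a filter, with the replicate block and under DESeq2, and 1 to 2 when each sample was left out. The added gene was Slc40a1, whose adjusted p ranged from 0.004 to 0.439. The replicate block changed no other call of the 10 genes. Values near 0 changed sign. With the block Ftl1 in DMEM + Rux against DMEM was -0.0027. Scaling by total counts turned Hmox1 in CM + Rux against DMEM + Rux to -0.20 and Fth1 with IKK-16 against CM + Rux to 0.051. With each sample left out in turn, Fth1 in that comparison ranged from -0.075 to 0.0060. In DMEM + Rux against DMEM the ranges were -0.29 to 0.074 for Tfrc, -0.037 to 0.19 for Fth1, -0.026 to 0.082 for Ftl1, -0.064 to 0.11 for Slc11a1, -0.22 to 0.020 for Slc11a2 and -0.11 to 0.020 for Ireb2. The causes were not tested. Scaling by total counts changed the split of all genes called higher and lower in CM against DMEM from 2584 and 2980 to 1536 and 4605, in CM + Rux against DMEM + Rux from 2761 and 3096 to 1700 and 4672, with IKK-16 from 504 and 453 to 727 and 350, and in the 2 h samples from 1556 and 1327 to 1339 and 1704. Depth limits Steap4, which had at most 7 counts per sample outside CM alone and the 2 h samples.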

Other observations

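Over the 16 samples, the genes whose log2(CPM + 1) was most correlated with that of Slc40a1, among 9431 tested genes whose mean reached 5 CPM, were Htra2 (Pearson r = 0.99), Fam214a (0.99), Tmem94 (0.99), Eif4ebp2 (0.99) and P2ry1 (0.99). Fam214a was at 35.7 CPM in DMEM and 0.80 CPM in CM, and P2ry1 at 25.5 and 1.67 CPM. For Steap4 they were Tbc1d9b (0.94), Cmtm6 (0.93), Scimp (0.93), Ssbp4 (0.92) and Fcgr3 (0.91), among 9432 genes. Scimp was at 21.1 CPM in CM and at 0.58 to 2.03 CPM in the other groups. The samples share their media and inhibitors within a group, and the values are a description with no test.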
